A study of Homo sapiens with 24 samples.

Results

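The 10 genes described here make, break down or control the polyamines putrescine, spermidine and spermine: ODC1, AMD1, SRM and SMS for synthesis, SAT1 and SMOX for breakdown, OAZ1, OAZ2 and AZIN1 for control of ornithine decarboxylase, and ARG2 for the supply of ornithine. They were chosen by name, from the biochemistry of the pathway, with earlier results of these data known. All 10 were found among the 23368 genes of the table and passed the filter on low counts (13947 genes tested). The cells were AGS, an established human gastric adenocarcinoma line, wild type by its label, and RNA was taken after 24 h. Control cells received no inhibitor, and the labels do not say whether they received vehicle. PI103, an inhibitor of PI3 kinase and mTOR, was used at 0.7 µM, PD0325901, an inhibitor of MEK, at 0.035 µM, and (5Z)-7-oxozeaenol, an inhibitor of TAK1 called oxozeaenol from here on, at 0.5 µM. The combinations held each agent at 50% of that concentration: PI103 at 0.35 µM with oxozeaenol at 0.25 µM, and PI103 at 0.35 µM with PD0325901 at 0.0175 µM. Each of the 6 groups had 4 biological replicates by the series' own description, in batches numbered like the replicates, all from a single cell line.

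Polyamines are small, positively charged molecules that bind RNA, DNA and nucleotides, and growing cells need them for translation. ODC1 turns ornithine into putrescine, AMD1 supplies the aminopropyl donor by decarboxylating S-adenosylmethionine, SRM adds that group to putrescine to give spermidine, and SMS adds it to spermidine to give spermine. SAT1 acetylates spermidine and spermine for export or oxidation, and SMOX oxidizes spermine back to spermidine. Antizymes, encoded by OAZ1 and OAZ2, bind the ODC1 protein and send it to the proteasome, and AZIN1 resembles ODC1 but has no enzymatic activity and binds antizyme in its place. Epithelial cells of the gut and many tumours have long been known for high ornithine decarboxylase activity, and ODC1 is a textbook target of the transcription factor MYC, which binds the letters CACGTG.

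Some of the sequence through which these genes are controlled is shown here, because the measurements below are of mRNA only. All coordinates are on GRCh38. The letters CACGTG, the same on both strands, occurred in RefSeq promoter windows (GRCh38.p14, each reaching from upstream of a transcription start to just past it) of ODC1 and SRM, 2 of the 8 members that had a window. In ODC1 they occurred 2 times, at positions -29 and 6 from a second RefSeq start, both inside intron 1 of its GENCODE transcript. In SRM the match lay at position -199. ARG2 held the letters TGACGTCA, the cAMP response element, also the same on both strands, at positions -172 and -64 from its RefSeq start, and the nearer match lies inside exon 1 as GENCODE draws it. No match overlaps another. Capitals mark these letters in the stretches from ODC1 (chr2:10447993-10448052, minus strand), SRM (chr1:11060069-11060268, minus strand) and ARG2 (chr14:67619708-67619797 and chr14:67619845-67619874, plus strand).
ODC1 intron 1: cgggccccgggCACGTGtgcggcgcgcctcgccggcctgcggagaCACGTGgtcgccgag
SRM upstream: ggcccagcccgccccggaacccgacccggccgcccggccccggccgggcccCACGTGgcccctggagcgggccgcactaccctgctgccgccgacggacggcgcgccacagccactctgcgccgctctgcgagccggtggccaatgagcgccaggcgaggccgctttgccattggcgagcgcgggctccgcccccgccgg
ARG2 upstream: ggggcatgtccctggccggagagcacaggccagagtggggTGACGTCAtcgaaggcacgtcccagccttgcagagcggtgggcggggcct
ARG2 exon 1: caatgtggcggTGACGTCAcggggcgggcg
Among all 35116 windows of that length, 7.26% held CACGTG and 0.664% held it at least 2 times, while 1.85% held TGACGTCA and 0.0598% held it at least 2 times. These matches describe the letters and are not evidence of binding.

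A further stretch shows why the mRNA of OAZ1 is not a measure of antizyme. The first reading frame of OAZ1 ends at a stop codon after 68 codons, and ribosomes make antizyme only by slipping forward by a base there, which polyamines are known to promote. The capitals mark the last codon of that frame and its stop in OAZ1 (chr19:2269509-2273490, plus strand). Of the 11 annotated transcripts searched, 3 held this site at the end of an unbroken frame from a start codon. Transcripts with the same letters but no such frame were not counted.
OAZ1 frameshift site: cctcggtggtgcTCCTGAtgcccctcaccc

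Libraries held 38057638 to 84226380 counts in genes, and counts of the members ran from 809 for SMOX to 67723 for AZIN1 in a library. Counting error is small beside the biological coefficient of variation estimated for each member over all libraries, 0.0879 to 0.179. It is not small beside the spread of every group: OAZ2 with PI103 had an SD of 0.896% of its mean. Levels are given as CPM, read counts scaled to a common library size with TMM factors, and are relative to all mRNA in a library, so less mRNA of a gene per cell and fewer cells that make it cannot be told apart. All 5 epithelial markers were present, with a summed level of 4603 to 7510 CPM per library. Of the immune markers, PTPRC, CD3E and CD14 stayed at or under 0.140 CPM, while LYZ carried the list from 37.8 to 48.4 CPM in control to between 187 and 466 CPM in the 20 treated libraries. The fibroblast list summed to 8.09 to 34.3 CPM, nearly all of it COL1A1, with 32.2 to 34.3 CPM with PI103 and 14.2 to 17.3 CPM in control, and the endothelial list to at most 0.437 CPM. The part of LYZ and COL1A1 in the results below was not tested.

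Most of the 10 mRNAs fell in each treatment except oxozeaenol, where 5 of 10 did. SRM, SMOX, AZIN1 and ARG2 fell in all 5 treatments, a pattern shared by 13.5% of all genes tested. With PI103, 7 of 10 members fell and 1 rose, where 51.4% of all genes were called (25.2% lower, 26.2% higher). With PD0325901, 6 fell and 1 rose, where 58.6% of all genes were called (29.9% lower, 28.7% higher). Oxozeaenol lowered 5 and raised 2 (51.9% of all genes called, 26.1% lower and 25.7% higher). PI103 with oxozeaenol lowered 7 and raised 0 (55.6% called, 27.9% lower and 27.7% higher), and PI103 with PD0325901 lowered 8 and raised 1 (64.8% called, 32.6% lower and 32.2% higher). A gene is called where edgeR's quasi-likelihood test, adjusted by Benjamini-Hochberg over all genes of the comparison, gives a p under 0.05. The median log2 fold change of the 10 members was -0.52, -0.79, -0.29, -0.58 and -0.93 in the same order of treatments, against 0.02, -0.02, 0.02, 0.02 and 0.01 over all genes tested. All 5 comparisons share the same 4 control libraries.

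**Figure D1:**
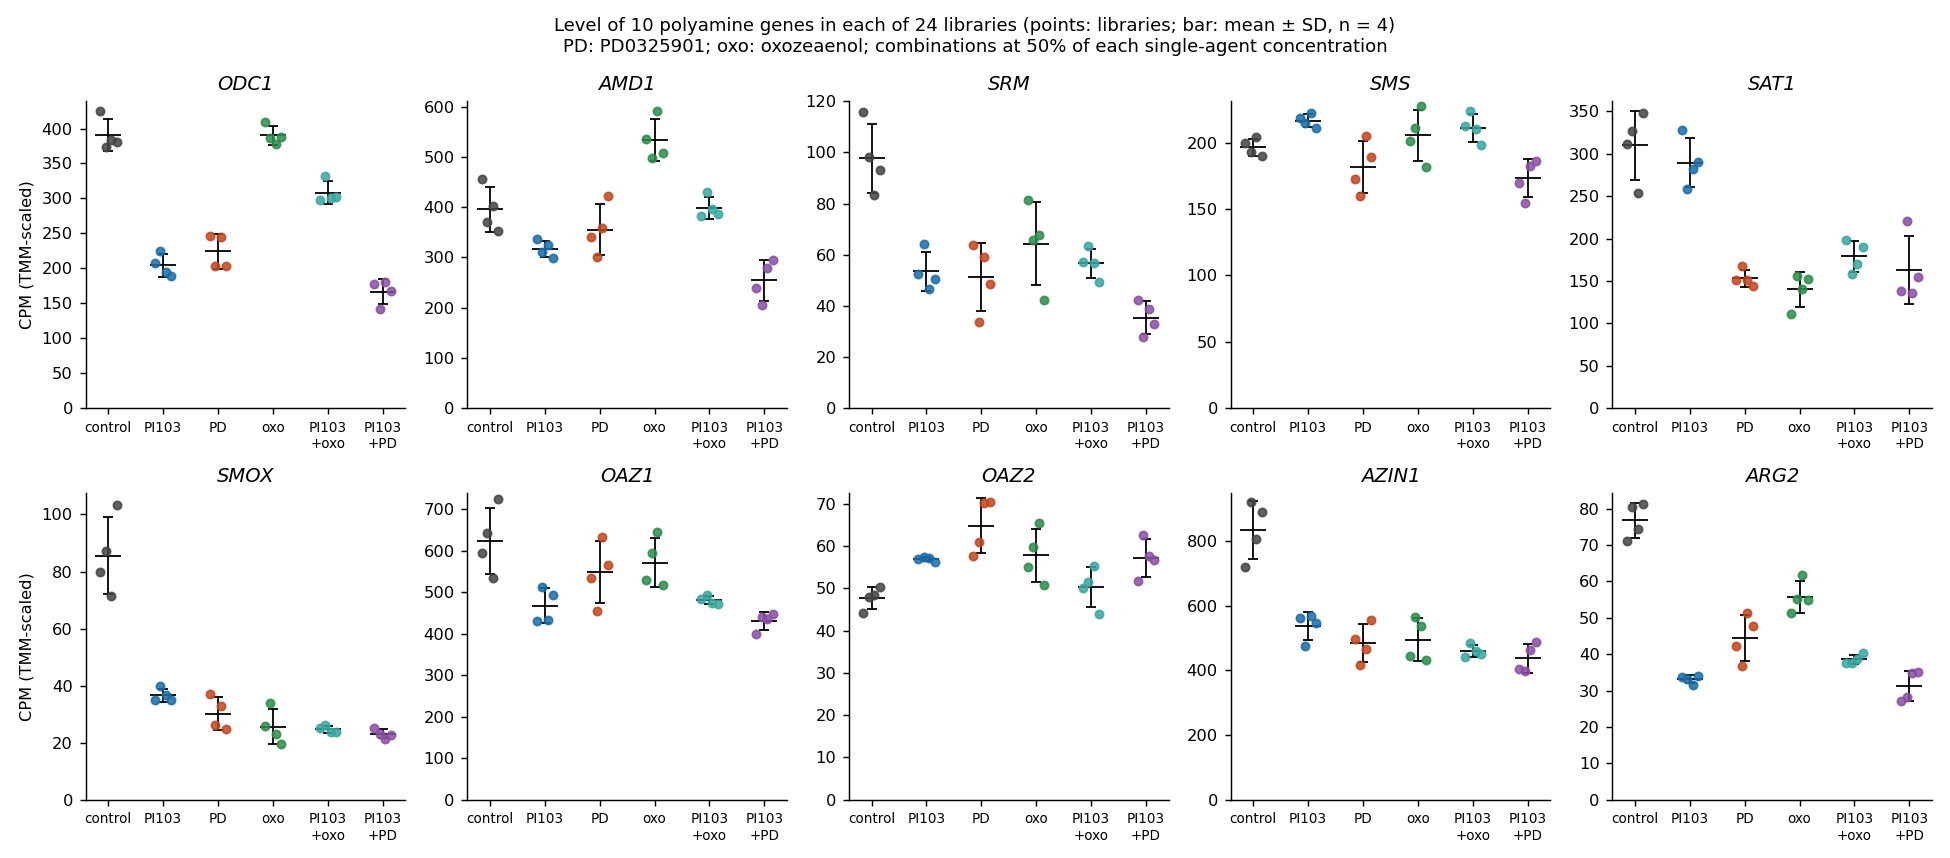
Level of each of the 10 genes in every library, in CPM on a linear axis from 0; points are libraries, bars are mean ± SD over 4 replicates, and the 6 groups stand in the same order in each panel. ODC1 is near 390 CPM in control and with oxozeaenol and near 167 CPM with PI103 and PD0325901 together, while SMOX reaches at most 39.7 CPM in a treated library and is at least 71.6 CPM in control.

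ODC1, the first enzyme of the pathway (chr2:10439968-10448504, minus strand, ENSG00000115758.12), separated oxozeaenol from the other treatments. Control libraries read 426, 374, 384 and 380 CPM (replicates 1 to 4), and those with oxozeaenol 409, 386, 379 and 387 CPM. PI103 gave 208, 225, 195 and 188 CPM and PD0325901 246, 203, 245 and 203 CPM, every library of both below every control library. ODC1 fell by 47.8% with PI103 (log2 fold change -0.94, SE 0.0880, edgeR adjusted p = 2.46e-09) and fell by 42.6% with PD0325901 (log2 fold change -0.80, adjusted p = 2.11e-08). With oxozeaenol the log2 fold change was -0.00 with a 95% interval of -0.18 to 0.18 (adjusted p = 0.990). The difference between the treatments was itself tested: ODC1 was lower with PI103 than with oxozeaenol by a log2 difference of -0.94 (adjusted p = 5.43e-09) and lower with PD0325901 than with oxozeaenol by -0.80 (adjusted p = 3.58e-07).

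Under the combinations ODC1 lay at 297, 332, 300.2 and 302 CPM with PI103 and oxozeaenol, and at 177, 142, 180.2 and 167 CPM with PI103 and PD0325901. The former group is between its single agents, above every PI103 library and below every oxozeaenol library (log2 differences 0.59, adjusted p = 1.98e-05, and -0.34, adjusted p = 0.00929). The latter is the lowest of the 6 groups, 57.4% below control (log2 fold change -1.23, SE 0.0885, adjusted p = 8.61e-12), and lower than PD0325901 alone by -0.43 (adjusted p = 0.00148). It was also lower than PI103 alone by -0.29 (adjusted p = 0.00974), a call that was lost without replicate 2 of the combination (-0.22, adjusted p = 0.0587). In the order of levels, control and oxozeaenol were not told apart, nor were PD0325901 and PI103 (adjusted p = 0.217), and all other neighbours differed.

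AMD1, which makes the aminopropyl donor (chr6:110874770-110895713, plus strand), was the synthesis gene that rose in a treatment. Control libraries read 457, 371, 403 and 353 CPM, and oxozeaenol libraries 535, 498, 593 and 509 CPM, all above control. AMD1 rose by 34.7% with oxozeaenol (log2 fold change 0.43, SE 0.109, adjusted p = 0.00181). It fell by 35.7% with PI103 and PD0325901 together, with 239.5, 204, 279 and 295 CPM (log2 fold change -0.64, SE 0.109, adjusted p = 1.39e-05). PI103 alone gave 299 to 336 CPM and a fall of -0.32 on the log2 scale (adjusted p = 0.0161), which was lost without control replicate 1, the highest control library (-0.24, adjusted p = 0.0805). PD0325901 alone gave -0.16 (adjusted p = 0.226) and PI103 with oxozeaenol 0.01 (adjusted p = 0.943), with ranges that overlapped control. The oxozeaenol libraries lay above those of every other treatment without overlap, with log2 differences of -0.75 for PI103 against oxozeaenol (adjusted p = 4.79e-06) and -0.59 for PD0325901 against oxozeaenol (adjusted p = 3.23e-04). Named pseudogenes of AMD1 exist in the annotation (5 entries), so its counts are uncertain where reads match more than a single place.

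SRM, spermidine synthase (chr1:11054584-11060024, minus strand), fell in every treatment. Control libraries read 116, 98.3, 83.4 and 93.1 CPM, and the highest treated library, oxozeaenol replicate 1, read 81.4 CPM, so no treated library reached control. The group with PI103 and PD0325901 was lowest, at 42.2, 27.6, 38.6 and 32.8 CPM, and SRM fell by 63.8% (log2 fold change -1.47, SE 0.185, adjusted p = 2.55e-07). PI103 alone gave a log2 fold change of -0.87 (adjusted p = 0.00033), PD0325901 alone -0.93 (adjusted p = 1.19e-04), oxozeaenol alone -0.60 (adjusted p = 0.00751) and its mixture with PI103 -0.79 (adjusted p = 7.73e-04). Neighbours among these 4 groups were not told apart in the order of levels (adjusted p = 0.542 to 0.807). The lowest group differed from its neighbour, PD0325901 alone, by -0.54 (adjusted p = 0.0434), with ranges that overlapped. That call was lost in 6 of 8 fits that left out a library. It was also lost without the filter on low counts (adjusted p = 0.0803) and when only these groups were fitted (adjusted p = 0.0898). SRM was the most variable member between replicates, with a biological coefficient of variation of 0.179 against 0.0879 to 0.134 for the other 9, and 2 named pseudogenes.

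SMS, spermine synthase (chrX:21940573-21994835, plus strand), passed the test in none of the 5 treatments, unlike SRM, the step before it. Control libraries read 199.5, 193, 204 and 189.9 CPM and the 20 treated libraries 154 to 228 CPM. PI103 libraries, at 211 to 222 CPM, lay just above control without overlap (log2 fold change 0.14, 95% interval -0.03 to 0.31, adjusted p = 0.162). Those with PI103 and PD0325901, at 154 to 186 CPM, lay just below (log2 fold change -0.18, interval -0.35 to -0.01, adjusted p = 0.0549). That last difference was called when the batch was a term in the fit (-0.18, adjusted p = 0.0327), with DESeq2 (-0.19, adjusted p = 0.0413) and without replicate 4 of the combination (-0.22, adjusted p = 0.0366). PI103 libraries were higher than PD0325901 libraries by 0.26 (adjusted p = 0.0136), a call lost without PD0325901 replicate 1 (0.20, adjusted p = 0.0883) or replicate 2 (0.17, adjusted p = 0.131).

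**Figure D2:**
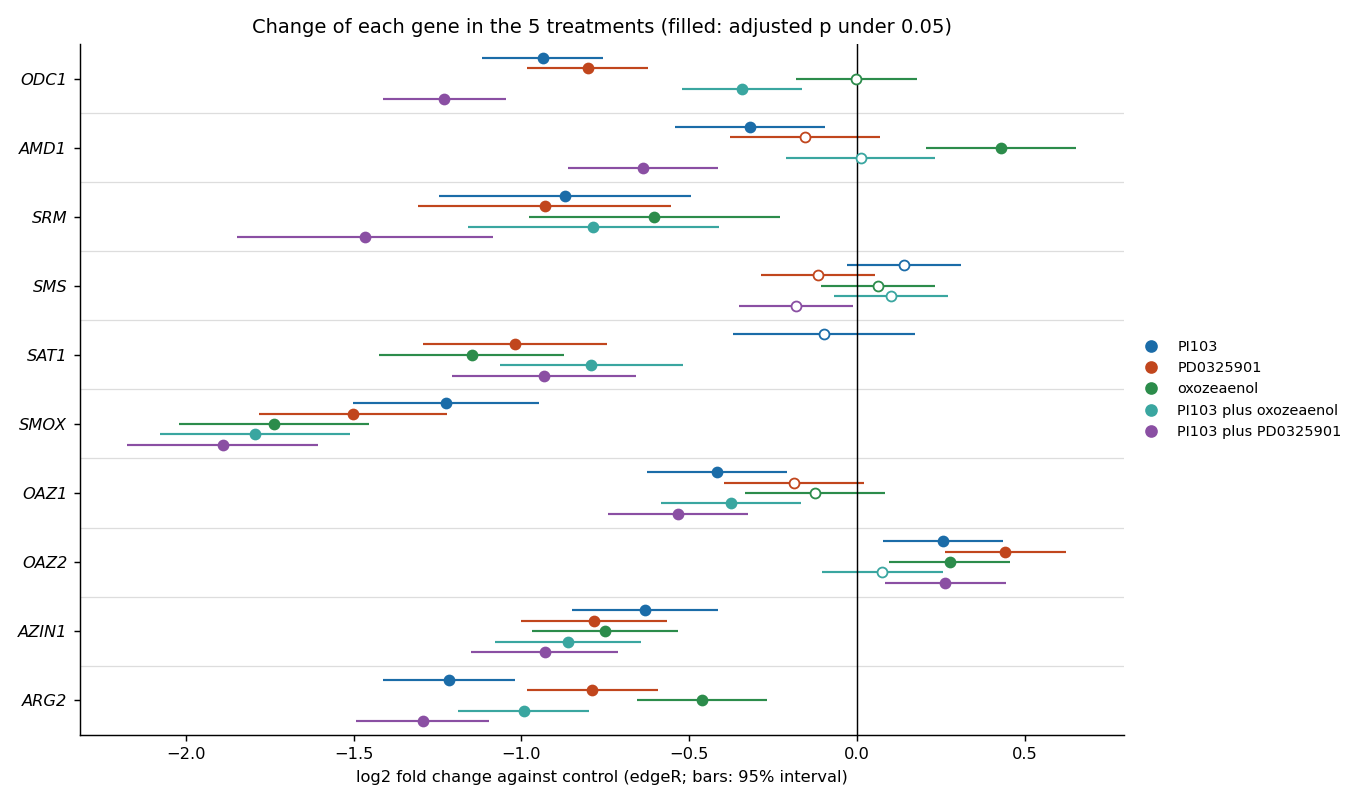
Log2 fold change of each gene against control in the 5 treatments, from edgeR, with 95% intervals; filled points have an adjusted p under 0.05. SMOX has the lowest values of all members (-1.89 to -1.22), and OAZ2 lies right of 0 in every treatment (0.08 to 0.44). ODC1 runs from -1.23 to -0.00 and AMD1 from -0.64 to 0.43, depending on the treatment.

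Both breakdown genes fell, in different sets of treatments. SAT1, the acetyltransferase that is usually the rate-limiting step of breakdown (chrX:23783173-23786226, plus strand), read 311, 327, 254 and 348 CPM in control and 328, 258, 282 and 289.9 CPM with PI103, ranges that overlap. PD0325901 gave 150.5, 167, 150.7 and 144 CPM and oxozeaenol 111, 156, 140.3 and 152 CPM, all below control. SAT1 fell by 50.6% with PD0325901 (log2 fold change -1.02, SE 0.134, adjusted p = 3.96e-07) and fell by 54.9% with oxozeaenol (log2 fold change -1.15, adjusted p = 1.02e-07). With PI103 the log2 fold change was -0.10, with an interval of -0.37 to 0.17 (adjusted p = 0.553). SAT1 was higher with PI103 than with PD0325901 by 0.92 (adjusted p = 3.70e-06) and than with oxozeaenol by 1.05 (adjusted p = 6.84e-07), so the difference between agents held up in its own test.

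Both combinations that contained PI103 also had low SAT1. With oxozeaenol the libraries read 198, 158, 170.0 and 190.2 CPM (log2 fold change against control -0.79, adjusted p = 1.72e-05), and with PD0325901 138, 221, 136 and 155 CPM (-0.93, adjusted p = 1.10e-06). Both were below PI103 alone, by -0.69 (adjusted p = 4.71e-04) and -0.83 (adjusted p = 2.43e-05). Against oxozeaenol alone, the combination with PI103 was higher by 0.36 (adjusted p = 0.0688), a difference that was called with the batch in the fit (0.36, adjusted p = 0.0408) and when only these 8 libraries were fitted (0.35, adjusted p = 0.0493). ODC1 with oxozeaenol alone and SAT1 with PI103 alone overlapped control, and in both combinations each of these genes lay below it.

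SMOX, spermine oxidase (chr20:4120980-4187747, plus strand), had the largest log2 fold change of the 10 in each of the 5 treatments, though with PI103 it and ARG2 were equal to 2 decimals. Control libraries read 79.97, 87.1, 71.6 and 103 CPM. PI103 gave 35.1, 39.7, 36.6 and 35.0 CPM, PD0325901 37.0, 26.2, 32.7 and 24.9 CPM and oxozeaenol 26.0, 33.9, 23.0 and 19.5 CPM. Every treated library was below every control library, and SMOX fell by 57.2% with PI103, fell by 64.7% with PD0325901 and fell by 70.0% with oxozeaenol (log2 fold changes -1.22, -1.50 and -1.74, SE 0.135 to 0.138, adjusted p = 4.08e-08, 9.16e-10 and 1.80e-10). The combinations were tightly grouped, at 23.6 to 26.2 CPM with oxozeaenol (-1.79, adjusted p = 6.99e-11) and 21.4 to 25.2 CPM with PD0325901 (-1.89, adjusted p = 1.27e-11). SMOX was higher with PI103 alone than with oxozeaenol alone by 0.51 (adjusted p = 0.00339), and both combinations were lower than PI103 alone, by -0.57 (adjusted p = 0.00357) and -0.67 (adjusted p = 3.76e-04).

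Where the antizyme genes were called against control, OAZ1 was lower and OAZ2 higher. Both were called in the same treatment only with PI103 and with PI103 and PD0325901 together. OAZ1 (chr19:2269509-2273490) read 594, 642, 534 and 723 CPM in control and fell by 25.1% with PI103 (430.2, 511, 432 and 493 CPM, log2 fold change -0.42, adjusted p = 0.00126). It fell by 22.9% with PI103 and oxozeaenol (472 to 492 CPM, -0.38, adjusted p = 0.00278) and fell by 31.0% with PI103 and PD0325901 (399.5 to 446 CPM, -0.53, adjusted p = 5.54e-05). So OAZ1 was called lower than control in each of the 3 groups that held PI103. The ranges overlapped control with PD0325901 (-0.19, adjusted p = 0.115) and oxozeaenol (-0.13, adjusted p = 0.309). Without PD0325901 replicate 3 the PD0325901 effect was called (-0.27, adjusted p = 0.0339). Tested directly, PI103 was not told apart from PD0325901 (-0.23, adjusted p = 0.0688). It was lower than oxozeaenol (-0.29, adjusted p = 0.0229), a call lost in 4 of 8 fits without a library. PI103 with oxozeaenol was told apart from neither oxozeaenol (adjusted p = 0.0962) nor PD0325901 (adjusted p = 0.151). PI103 with PD0325901 was lower than PD0325901 (adjusted p = 0.019) and oxozeaenol (adjusted p = 0.00215). OAZ2 (chr15:64687573-64703281, minus strand) was the only member of the 10 that rose in more than 1 treatment. It read 44.2, 47.8, 48.4 and 50.2 CPM in control and 57.6, 60.8, 70.1 and 70.5 CPM with PD0325901 (0.44, SE 0.0874, adjusted p = 1.07e-04). It rose by 0.26 with PI103 (56.3 to 57.4 CPM, adjusted p = 0.0159), by 0.28 with oxozeaenol (50.8 to 65.4 CPM, adjusted p = 0.00999) and by 0.26 with PI103 and PD0325901 (51.8 to 62.7 CPM, adjusted p = 0.0103). The call with PI103 was lost without control replicate 1 (0.22, adjusted p = 0.0545), and that with oxozeaenol without oxozeaenol replicate 3 (0.21, adjusted p = 0.0581). With PI103 and oxozeaenol together OAZ2 was at 0.08 (adjusted p = 0.480).

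AZIN1, the antizyme inhibitor (chr8:102826357-102893864, minus strand), fell in all 5 treatments. Control libraries read 721, 920.3, 805 and 889 CPM. The 20 treated libraries read 397 to 567 CPM, with no overlap. The log2 fold change was -0.63 for PI103, -0.78 for PD0325901 and -0.75 for oxozeaenol, and -0.86 and -0.93 for PI103 combined with oxozeaenol or PD0325901 (SE 0.106, largest adjusted p = 1.89e-05). In the order of levels no 2 neighbouring treatments were told apart (adjusted p = 0.376 to 0.845). Of the pairs further apart, PI103 with PD0325901 was lower than PI103 alone by -0.30 (adjusted p = 0.0272), with ranges that overlapped. That call was lost without PI103 replicate 1 (adjusted p = 0.0679), 3 (adjusted p = 0.0707) or 4 (adjusted p = 0.0507), and without replicate 1 (adjusted p = 0.0717) or 2 (adjusted p = 0.0936) of the combination. Overlapping transcripts cover a small share of the exons of these control genes: 6.87% of OAZ1, 7.22% of OAZ2 and 5.35% of AZIN1 on the opposite strand. A further 6.4% of OAZ1 is shared with AC005258.1 on the same strand, which stranded counting would not separate.

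ARG2, the mitochondrial arginase that makes ornithine (chr14:67619798-67651720, plus strand), fell in every treatment, and by unequal amounts. Control libraries read 71.1, 80.5, 74.3 and 81.2 CPM, PI103 libraries 33.7, 33.1, 31.5 and 33.9 CPM, PD0325901 libraries 42.1, 36.7, 51.2 and 47.7 CPM and oxozeaenol libraries 51.3, 55.2, 61.7 and 54.8 CPM. All treated libraries lay below control, and the PI103 libraries below those of both other single agents. ARG2 fell by 56.9% with PI103 (log2 fold change -1.22, SE 0.0959, adjusted p = 1.26e-10), by -0.79 on the log2 scale with PD0325901 (adjusted p = 1.00e-07) and by -0.46 with oxozeaenol (adjusted p = 2.18e-04). PI103 was lower than PD0325901 by -0.43 (adjusted p = 6.54e-04) and lower than oxozeaenol by -0.75 (adjusted p = 6.11e-07). With oxozeaenol and PI103 together ARG2 read 37.5 to 40.4 CPM (-0.99, adjusted p = 2.78e-09), and with PD0325901 and PI103 27.2 to 35.1 CPM (-1.29, adjusted p = 1.48e-11). Of the exons of ARG2, 37.4% lie opposite exons of VTI1B, and whether the counting used strand is not given in the sources used here. VTI1B moved differently: its log2 fold changes against control were 0.06, 0.14, 0.23, 0.13 and 0.05 in the order of treatments above, with a rise called for oxozeaenol (adjusted p = 0.0123).

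Ratios of 2 genes within a library do not depend on library size, and here only their change between groups is read, with no test. SMS to SRM, the last step relative to the step before it, was 2.04 ± 0.302 in control (SD, n = 4) and lay above the control range in all treatments, with 4.11 ± 0.589 with PI103, 3.34 ± 0.757 with oxozeaenol and 5.00 ± 0.779 with PI103 and PD0325901. ODC1 to OAZ1 was 0.636 ± 0.0973 in control. It was below the control range with PI103 (0.439 ± 0.0424), PD0325901 (0.413 ± 0.0488) and both together (0.389 ± 0.0520), and overlapped it with oxozeaenol (0.690 ± 0.0872) and with PI103 and oxozeaenol (0.641 ± 0.0250). In that last group the log2 fold changes of ODC1 and OAZ1 were -0.34 and -0.38. AZIN1 to OAZ1 was 1.35 ± 0.148 in control and 0.866 ± 0.0589 with oxozeaenol, 0.892 ± 0.108 with PD0325901 and 1.16 ± 0.185 with PI103, and only with PI103 did the range overlap control. SMOX to SAT1 was 0.276 ± 0.0178 in control and below its range in all treatments, lowest with PI103 at 0.128 ± 0.0197, where SMOX fell and SAT1 overlapped control.

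**Figure D3:**
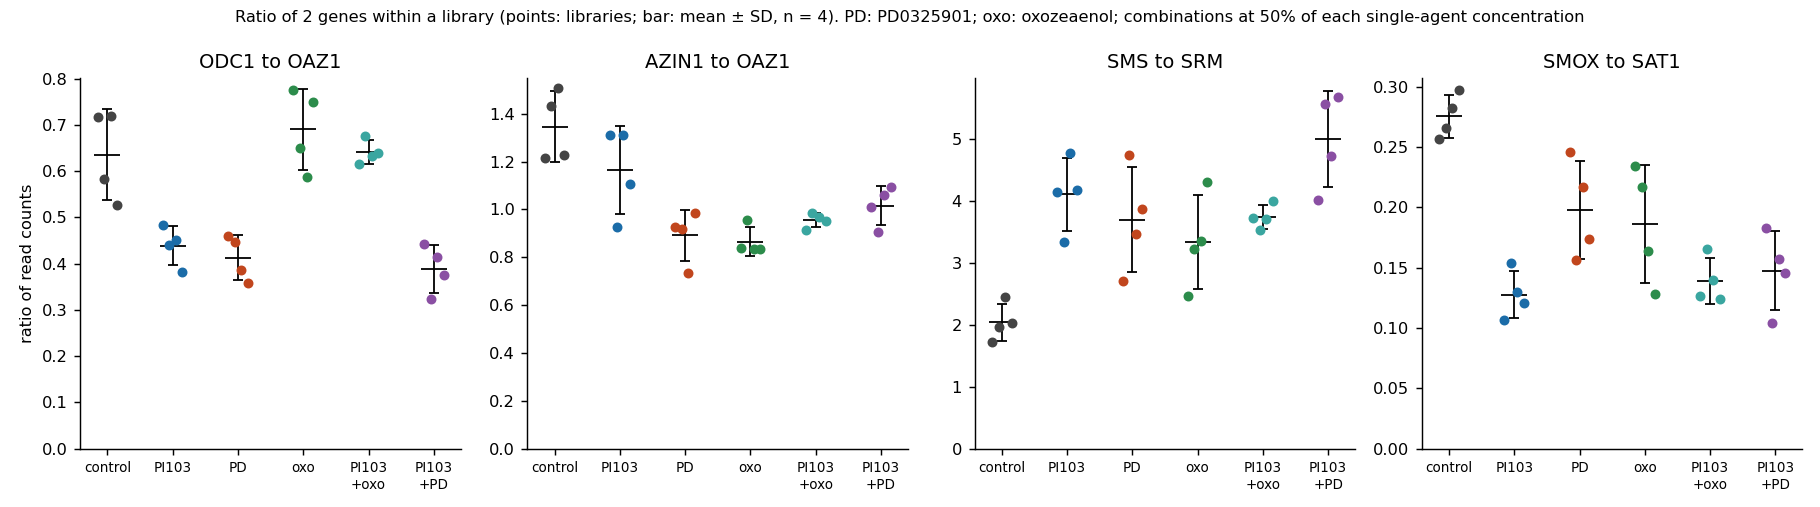
Ratio of the read counts of 2 genes within each library, on linear axes from 0; points are libraries and bars are mean ± SD over 4 replicates. SMS to SRM lies above control in all 5 treatments and SMOX to SAT1 below it, while ODC1 to OAZ1 is below control in the 2 single agents PI103 and PD0325901 and in their combination.

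The combinations were compared with the mean of their single agents on the log2 scale, since each agent was at 50% of its single concentration. This yardstick takes for granted that 50% of a dose gives 50% of its log2 change, which was not tested, as no agent was given alone at that dose. A difference from the mean is therefore not read here as an interaction between the agents. For PI103 and oxozeaenol 0 of 10 members differed from that mean, where 3.98% of all genes did. The nearest was SMOX at -0.31 (95% interval -0.56 to -0.07, adjusted p = 0.155), which was called without oxozeaenol replicate 4 (-0.37, adjusted p = 0.0491). For ODC1 the value was 0.13 with an interval of -0.03 to 0.28.

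For PI103 and PD0325901, 6 of 10 members were lower than the mean of the single agents and 0 higher, where 22% of all genes differed, 11.1% lower and 10.8% higher. The median over the 10 members was -0.33, against -0.00 over all genes. ODC1 (-0.36, SE 0.0768, adjusted p = 0.00171), AMD1 (-0.40, SE 0.0958, adjusted p = 0.00419) and SMOX (-0.53, SE 0.119, adjusted p = 0.00280) were lower in all 4 batches and kept the call when any single library was left out. SRM (-0.57, adjusted p = 0.0147) lost it without replicate 2 of the combination (-0.47, adjusted p = 0.0885). ARG2 (-0.29, adjusted p = 0.0138) lost it without replicate 1 (-0.23, adjusted p = 0.0628) or replicate 2 of the combination (-0.25, adjusted p = 0.0770). SAT1 (-0.37, adjusted p = 0.0229) was lower in 3 of 4 batches and lost the call without replicate 1 (adjusted p = 0.0861), replicate 3 (adjusted p = 0.0910) or replicate 4 (adjusted p = 0.0617) of the combination. A value below the mean need not be below both agents. SAT1 with the combination was not told apart from PD0325901 alone (0.09, adjusted p = 0.689), nor was ARG2 from PI103 alone (-0.08, adjusted p = 0.547).

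The other 4 members were not called against that mean. SMS was at -0.19 (adjusted p = 0.0533) and OAZ1 at -0.23 (adjusted p = 0.0604), and both were called with the batch in the fit (SMS -0.19, adjusted p = 0.0278; OAZ1 -0.23, adjusted p = 0.0428) and without PD0325901 replicate 2 (adjusted p = 0.0214 and 0.0183), SMS also without replicate 4 of the combination (adjusted p = 0.0472). AZIN1 was at -0.22 (adjusted p = 0.0832), called without PD0325901 replicate 2 (-0.26, adjusted p = 0.0355). OAZ2 was at -0.09 (adjusted p = 0.438). All 10 values were below 0.

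**Figure D4:**
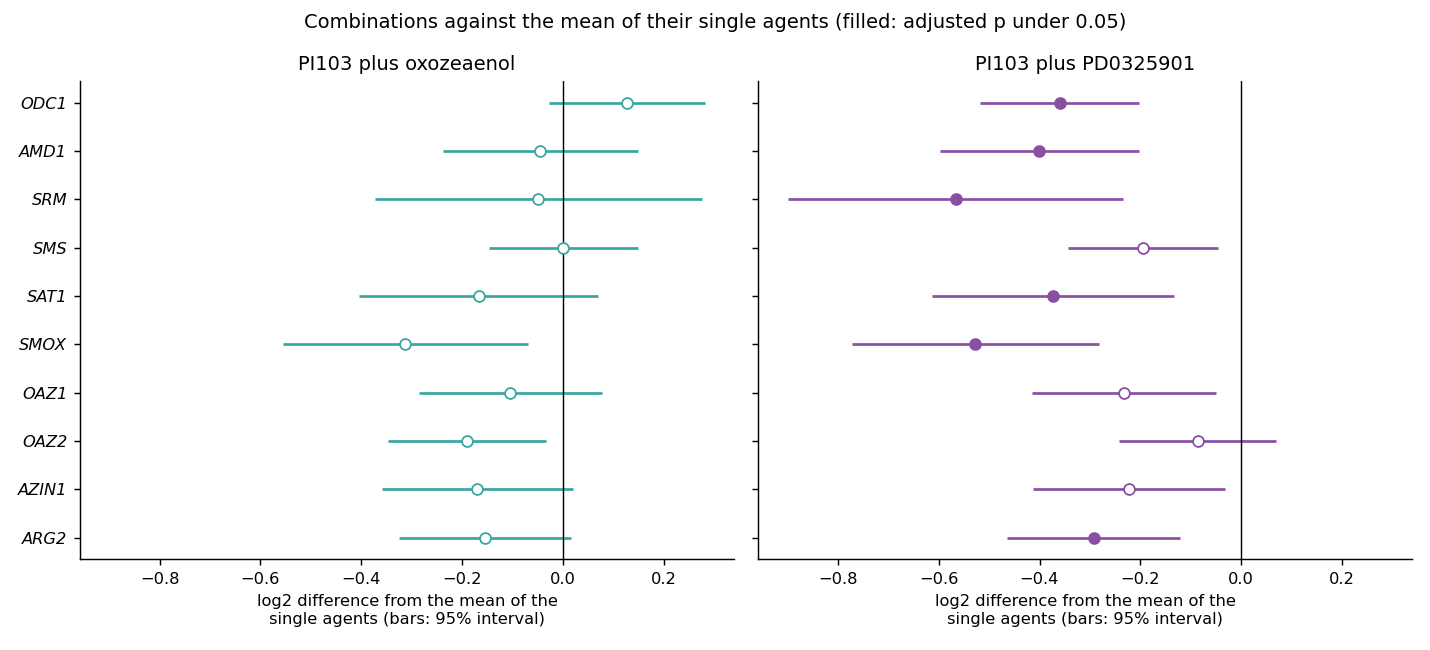
Log2 difference of each combination from the mean of its 2 single agents, with 95% intervals from edgeR; filled points have an adjusted p under 0.05. With PI103 and oxozeaenol all 10 points are open, and with PI103 and PD0325901 ODC1, AMD1, SRM, SAT1, SMOX and ARG2 are filled and lie between -0.57 and -0.29.

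Between single agents, 3 members differed for PI103 against PD0325901 (44.5% of all genes), 6 for PI103 against oxozeaenol (43.1%) and 3 for PD0325901 against oxozeaenol (28.5%). Without PD0325901 replicate 2 the first count was 5, and without oxozeaenol replicate 4 the last was 5. Against PI103 alone, 4 members differed when oxozeaenol was the partner (18.3% of all genes). With PD0325901 as the partner 7 differed (38.7%), all 7 lower (19.9% of all genes), and leaving out replicate 2 of that group brought this to 3. Against PD0325901 alone, 6 members were lower with the combination (18.1% of all genes called, 10% lower), but 3 without PD0325901 replicate 3 and 2 when only these 8 libraries were fitted. PI103 with oxozeaenol differed from oxozeaenol alone in 3 members (14.9% of all genes) and from PD0325901 alone in 3 (36.8%). PI103 with PD0325901 differed from oxozeaenol alone in 6 (43.9%) and from the other combination in 5 (29.9%).

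Genes around the pathway were followed in 5 lists, chosen like the members by name. The hypusine list holds the protein that spermidine modifies and its modifying enzymes: EIF5A, a translation factor, DHPS, which moves an aminobutyl group of spermidine onto it, DOHH, which finishes the modification, and EIF5A2, the second form of the factor. EIF5A and DOHH fell in all 5 treatments. EIF5A was at 688 ± 55.7 CPM in control (SD, n = 4) and 339 ± 31.3 CPM with PI103 and PD0325901, with log2 fold changes of -0.45, -0.58, -0.44, -0.57 and -1.02 for PI103, PD0325901, oxozeaenol, the combination with oxozeaenol and that with PD0325901 (largest adjusted p = 0.00537). DOHH was at 14.3 ± 2.10 CPM in control, with -0.56, -0.58, -0.50, -0.54 and -0.93 (largest adjusted p = 0.00283). DHPS fell with PI103 and PD0325901 together (-0.38, adjusted p = 0.00193), and EIF5A2 stayed at or under 0.307 CPM in all libraries and was called nowhere. DHPS was also called with PD0325901 (-0.26, adjusted p = 0.0276), a call lost without PD0325901 replicate 1 (-0.23, adjusted p = 0.0872) or 2 (-0.16, adjusted p = 0.20), without control replicate 2 (-0.24, adjusted p = 0.0704) or 4 (-0.21, adjusted p = 0.108), and when only these 8 libraries were fitted (-0.23, adjusted p = 0.110).

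The lists of supply, methionine and transport genes held calls in both directions, and that of other polyamine genes did so across the treatments but not in PI103 with PD0325901. Of 8 tested genes of ornithine and arginine supply, 4 fell and 2 rose with PI103 and PD0325901, where 32.6% and 32.2% of all genes did so. The largest changes were in the arginine carriers SLC7A1, at 536 ± 22.5 CPM in control and 122 ± 23.1 CPM with the combination (-2.14, adjusted p = 3.04e-12), and SLC7A2, at 5.59 ± 1.96 and 1.62 ± 0.741 CPM (-1.78, adjusted p = 1.08e-05). SLC7A1 fell in all 5 treatments, by -1.16 at the least, with oxozeaenol (adjusted p = 1.67e-07). Of 9 genes of the methionine cycle and salvage, 3 fell and 1 rose, led by AHCY, which clears S-adenosylhomocysteine (541 to 279.8 CPM, -0.95, adjusted p = 3.05e-08), and ENOPH1 of the salvage of methylthioadenosine, the by-product of SRM and SMS (-0.86, adjusted p = 1.06e-08). Of 8 tested transport genes, 4 rose and 3 fell. The largest changes there were at low levels: CAV1 went from 0.315 ± 0.285 to 3.61 ± 1.09 CPM (3.47, adjusted p = 1.48e-07), and ATP13A4 was at 0.0156 CPM in control and 0.193 CPM with the combination. Of 4 other tested polyamine genes, 3 rose and 0 fell. AZIN2 (0.672 ± 0.248 to 1.28 ± 0.0820 CPM, 0.95, adjusted p = 7.34e-04) and AGMAT (0.94, adjusted p = 0.0157) led that list, both at levels near or under 1 CPM, and AGMAT lost the call without control replicate 1 (0.80, adjusted p = 0.0550) or replicate 3 of the combination (0.81, adjusted p = 0.0564).

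Against the mean of the single agents, PI103 and PD0325901 together lowered 3 of 4 hypusine genes and 3 of 9 methionine genes and raised 0 in both lists, where 22% of all genes differed, 11.1% lower and 10.8% higher. It lowered 3 and raised 0 of 8 supply genes, lowered 1 and raised 1 of 8 transport genes, and 0 of 4 other polyamine genes differed. EIF5A was at -0.51 (adjusted p = 0.00208) and AHCY at -0.51 (adjusted p = 5.49e-04), and both kept the call when any single library was left out. DHPS (-0.29, adjusted p = 0.0210) lost it without replicate 2 of the combination (-0.22, adjusted p = 0.123). DOHH (-0.36, adjusted p = 0.0305) lost it without PI103 replicate 2 (-0.35, adjusted p = 0.0516), PD0325901 replicate 3 (-0.33, adjusted p = 0.0589) or replicate 2 (-0.28, adjusted p = 0.149) or 4 (-0.29, adjusted p = 0.115) of the combination. With PI103 and oxozeaenol 0 genes of the hypusine, methionine, transport and other polyamine lists differed from the mean, where 3.98% of all genes did. Of 8 supply genes 1 was higher and 0 lower.

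**Figure D5:**
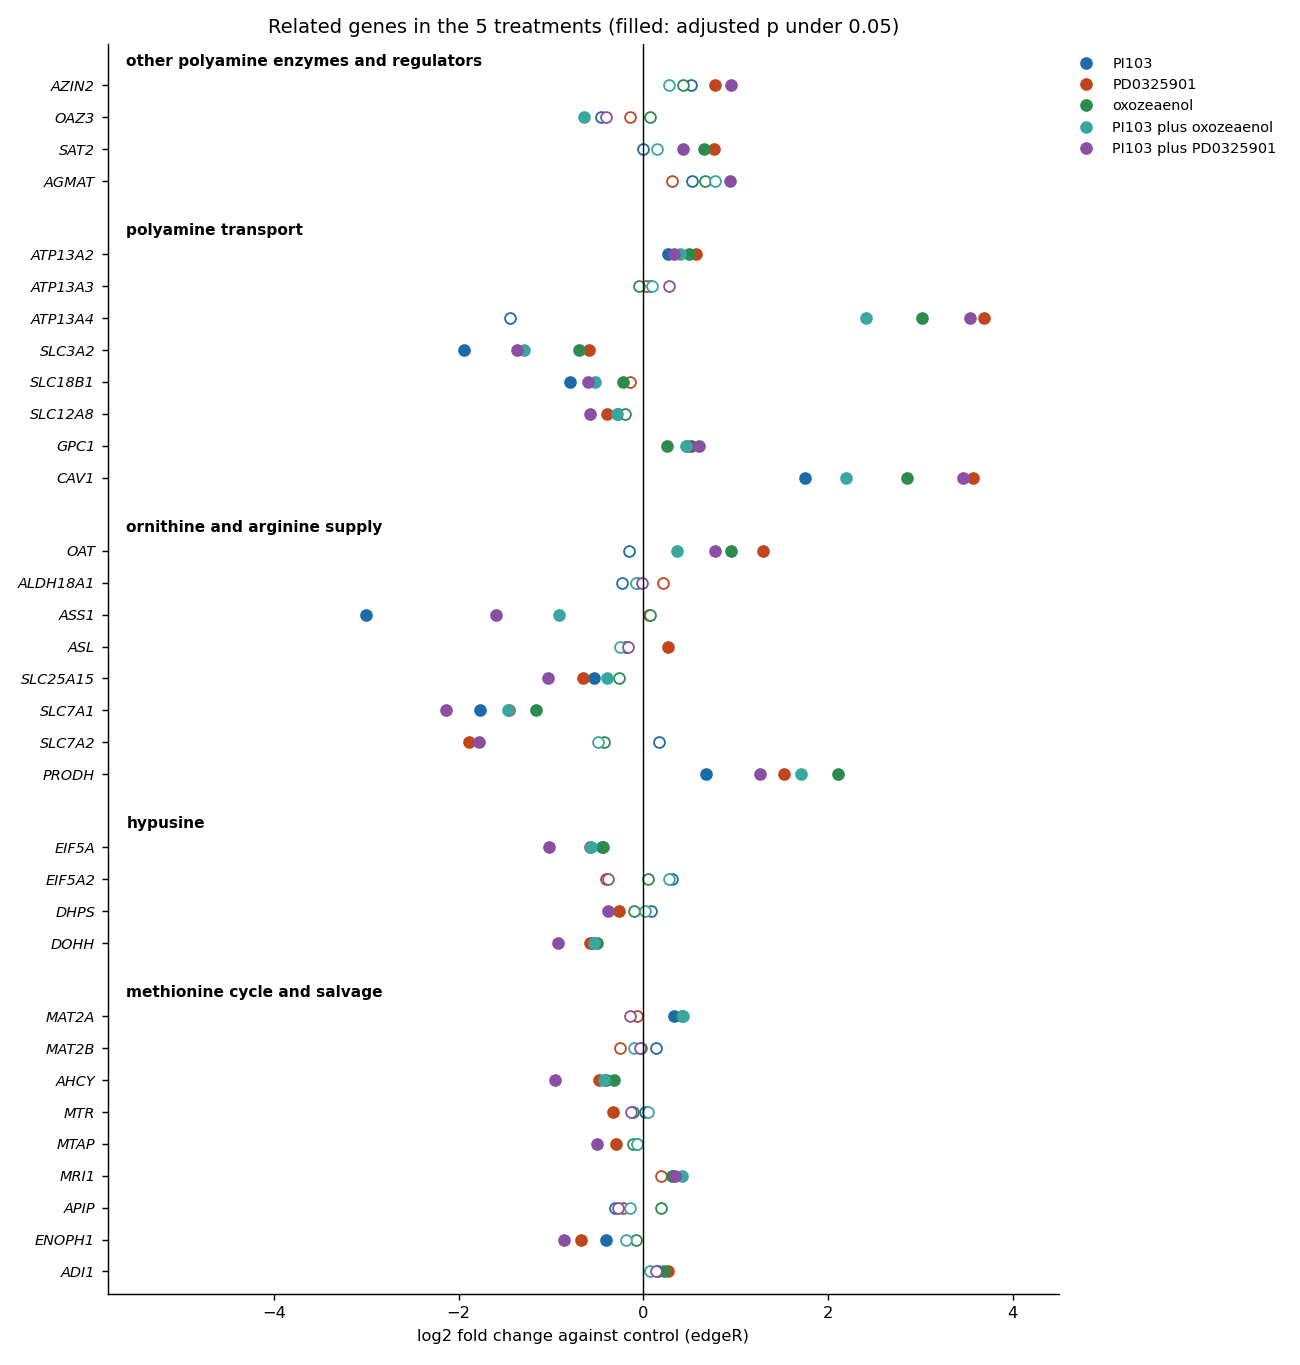
Log2 fold change against control of the tested genes of the 5 related lists in the 5 treatments, from edgeR; filled points have an adjusted p under 0.05. EIF5A, DOHH, AHCY and SLC7A1 are among the genes filled and left of 0 in all 5 treatments (AHCY with oxozeaenol loses its call without oxozeaenol replicate 4, -0.24, adjusted p = 0.0731), and CAV1 and ATP13A4, with the largest positive values, reach at most 6.09 CPM in a library.

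The 5 genes whose log2 CPM followed ODC1 most closely over the 24 libraries, among 10030 genes with a mean of at least 5 CPM, were TRMT6 (r = 0.956), METTL8 (0.950), SLC25A17 (0.948), QSOX2 (0.944) and PPIF (0.938). These values are a description: the libraries share 6 treatments and the genes were picked for their r. After group means were removed, r with ODC1 was 0.729 for TRMT6, 0.552 for METTL8, 0.303 for SLC25A17, 0.745 for QSOX2 and 0.763 for PPIF. TRMT6, for instance, was at 77.9 CPM in control, 68.6 CPM with oxozeaenol, 48.8 CPM with PI103 and 42.0 CPM with PI103 and PD0325901.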

How the data were processed

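The authors deposited whole-number read counts per gene symbol for 24 libraries, made with a stranded mRNA kit per the labels' protocols. The submitters' processing notes name the build GRCh38, and the aligner, counter and annotation are not given in the sources used here. The 5 tallies of unassigned reads were left out (no feature 4.24% to 8.57% of reads per library, ambiguous 1.57% to 2.01%, not uniquely aligned 4.64% to 6.06%), so genes with near-identical copies can be counted low.

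Counts of all 13947 genes that passed filterByExpr were normalized with TMM factors, and a robust quasi-likelihood model was fitted in edgeR 4.0.16 under R 4.3.3 (1 coefficient per group, 17 two-sided contrasts, Benjamini-Hochberg over genes). The spread was estimated over all 24 libraries. A standard error is the log2 fold change over the square root of F. Alternatives were DESeq2 1.42.0, relative log expression scaling, no filter, the replicate number as a block, only the groups compared, and each library left out in turn. The fit was tested on simulated data.

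The batch number pairs the libraries by label. Deviations from group means correlated at a mean r of 0.120 in 60 same-numbered pairs and -0.0394 in 180 others. Locations and overlaps came from GENCODE release 29, promoters from RefSeq GRCh38.p14.

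All 10 members were named whatever their values. In related lists the 2 largest called changes and the hypusine genes were named. Members and lists were chosen with earlier results of these data known. An immune marker of the list summed is not reported here. AZIN2 and SLC18B1 were matched through older symbols.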

Additional observations from a re-analysis of the deposited data

Results flagged for a closer look

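ODC1 in replicate 2 of PI103 and oxozeaenol, at 332 CPM, stood apart from the other 3 replicates, which lay between 297 and 302 CPM. The gap to the nearest of them was 0.857 of the range of the group. This was 1 of 60 groups of a gene tested in this way, and chance alone marks about 1 in 20. Replicate 2 remained below every control and every oxozeaenol library.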

How the results depend on the processing

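Against control, all 50 changes of the members kept their side of the threshold with relative log expression scaling and without the filter on low counts. The same held when only the groups compared were fitted. With DESeq2 and with the replicate block 49 of 50 did so, the exception being SMS with PI103 and PD0325901. Changes called in either fit also kept their direction. Over all 170 changes, 4 were gained under the replicate block (SMS with PI103 and PD0325901 against control, -0.18, adjusted p = 0.0327, SMS and OAZ1 against the mean of the single agents and SAT1 with PI103 and oxozeaenol against oxozeaenol), and 0 were lost. When only the groups compared were fitted 7 were lost and 3 gained, without the filter 5 were lost and 0 gained, with DESeq2 0 were lost and 5 gained, and with the other scaling 0 of either. Over 1440 fits of a change without a library, 60 lost and 21 gained a call. No change that was called in either fit reversed under any alternative run. Direction was not counted for changes called in neither fit, and some of these crossed 0. For example, ODC1 with oxozeaenol against control ran from -0.03 to 0.05 when a library was left out. Members called with PI103 and PD0325901 against PD0325901 fell from 6 to 2 when only these groups were fitted, where fewer libraries estimate the spread.

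Leaving out each library in turn gave counts of called members of 6 to 8 for PI103, 7 to 8 for PD0325901, 6 to 7 for oxozeaenol, 7 for PI103 with oxozeaenol and 9 to 10 for PI103 with PD0325901 against control. It gave 3 to 5 for PI103 against PD0325901, 2 to 5 for PD0325901 against oxozeaenol, 3 to 7 and 3 to 6 for PI103 with PD0325901 against PI103 and against PD0325901, and 0 to 1 and 4 to 9 for the combinations with oxozeaenol and with PD0325901 against the mean of their single agents. For the related genes named, 22 of the changes under these alternatives lost and 15 gained a call. Of changes called in either fit, 0 reversed. The cause of these shifts was not tested. The largest shift of the median of all genes under another scaling or filter was under 0.05 on the log2 scale. With 4 libraries a group, the differences of SMS and OAZ1 from the mean of PI103 and PD0325901 lay near the threshold, and mRNA levels do not show enzyme activity or polyamine content.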
